A study of Homo sapiens with 18 samples.

Results

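Kruppel-like factors are zinc-finger transcription factors, and 9 human members (KLF2, KLF3, KLF4, KLF5, KLF6, KLF9, KLF10, KLF11 and KLF13) were looked for by the gene symbols to which the probes of an Illumina expression array are annotated. Probes annotated to 7 of the 9 were found, 11 probes among the 48803 of the array, and KLF11 and KLF13 were not analysed here. RNA came from the lung adenocarcinoma line HCC827, which carries an activating EGFR mutation, and from ER3 and T15-2. Both were derived from HCC827 and are resistant to erlotinib, a drug that blocks the kinase of EGFR. All cells were starved overnight and then exposed for 12 h to 1 µM erlotinib or to DMSO, its solvent. This gave 6 groups of 3 arrays: HCC827 in DMSO, HCC827 in erlotinib, ER3 in DMSO, ER3 in erlotinib, T15-2 in DMSO and T15-2 in erlotinib. The labels do not say whether a subline is a clone, how it was selected, or whether the 3 samples of a group were separate cultures. The p-values therefore measure the spread between these samples, which may be technical, and 3 arrays per group limit the precision of every value.

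The family binds GC-rich and CACCC elements of promoters through zinc fingers at the end of the protein, and its members recruit either activators or repressors there. In epithelia, KLF4 is known as a factor of growth arrest and differentiation, and KLF5 as a factor of proliferating cells. KLF2 was first named for its level in the lung, KLF6 is a widely made regulator that growth stimuli induce quickly, KLF9 is a target of steroid hormone receptors, and KLF10 is an early gene of TGF-beta signalling. KLF3 acts mainly as a repressor together with CtBP proteins.

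RefSeq promoter sequences (build GRCh38.p14) were found for 5 of the 7 measured members. The 250 bases before the annotated start are shown for the 4 of these whose level differed between groups, so that the family's own kind of element can be seen in its promoters. Capitals mark matches on either strand to the GC box GGGCGG, the CCAAT box CCAAT, the E-box CACGTG and the 10-base element of MEF2 factors. The KLF2 window lies at chr19:16324576-16324825 on the plus strand, and the other windows lie on the minus strand, KLF4 at chr9:107489770-107490019, KLF6 at chr10:3785210-3785459 and KLF9 at chr9:70414658-70414907.
KLF2: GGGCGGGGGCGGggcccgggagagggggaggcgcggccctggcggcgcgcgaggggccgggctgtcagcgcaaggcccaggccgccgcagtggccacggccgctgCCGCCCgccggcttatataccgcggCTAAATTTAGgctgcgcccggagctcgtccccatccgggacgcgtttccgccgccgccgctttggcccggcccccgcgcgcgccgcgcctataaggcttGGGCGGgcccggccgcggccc
KLF4: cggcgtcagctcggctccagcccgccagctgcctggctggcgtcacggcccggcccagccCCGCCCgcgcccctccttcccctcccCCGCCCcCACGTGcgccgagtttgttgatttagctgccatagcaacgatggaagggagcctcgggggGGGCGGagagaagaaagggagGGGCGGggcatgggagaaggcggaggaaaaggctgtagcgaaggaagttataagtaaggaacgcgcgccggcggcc
KLF6: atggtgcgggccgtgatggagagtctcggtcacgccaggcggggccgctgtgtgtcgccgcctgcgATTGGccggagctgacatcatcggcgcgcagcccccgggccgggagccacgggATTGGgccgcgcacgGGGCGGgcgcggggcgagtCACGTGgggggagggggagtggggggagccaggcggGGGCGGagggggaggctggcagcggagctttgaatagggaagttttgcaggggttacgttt
KLF9: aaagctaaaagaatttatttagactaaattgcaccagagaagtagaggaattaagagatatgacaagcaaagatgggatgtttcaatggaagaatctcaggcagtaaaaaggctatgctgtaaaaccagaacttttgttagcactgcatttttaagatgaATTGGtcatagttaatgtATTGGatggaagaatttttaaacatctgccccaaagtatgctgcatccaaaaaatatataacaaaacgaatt
The GC box occurred at 4 places in the KLF2 window, at 4 in KLF4, at 2 in KLF6 and at 0 in KLF9, and 42.6% of 35116 promoter windows of this length hold it. The CCAAT box occurred at 2 places each in KLF6 and KLF9, and 32% of windows hold it. The E-box, a palindrome that matches on both strands at once, occurred at 1 place in KLF4 and 1 in KLF6, against 6.34% of all windows. The KLF2 window held the MEF2 element at 1 place, from base 120 to base 111 before the start, and 2.8% of all windows hold a match. No motif overlapped another. These matches describe letters in a window and are no measure of binding.

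Between 15698 and 17869 probes per array were above background, and arrays of a group correlated between 0.991 and 0.997 across genes. Of the markers of the labelled cell type, 8 of 9 for lung epithelium were above background on all 18 arrays, and SFTPB on 13. Of the 6 leukocyte markers PTPRC, CD3D and MS4A1 were above background on 0 arrays, CD3E on 2, CD14 on 17 and CD68 on 18. Of the 3 endothelial markers CDH5 was above background on 0 arrays, VWF on 9 and PECAM1 on 18, and of the 4 fibroblast markers COL1A2 and PDGFRB were on 0, COL1A1 on 6 and DCN on 8. ER3 DMSO replicate 2 and T15-2 erlotinib replicate 3 lay at opposite ends of the first component of the spread within groups, which held 24.5% of that spread. Member results whose call changed without both are given with them below.

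All values are normalized log2 intensities, and a difference of 1 is a doubling of intensity. Each of the 7 members had a probe above background on all 18 arrays, and its brightest probe stood for it. The second probe of KLF3 was above background on 0 arrays and that of KLF4 on 1, so neither entered a test, while all 3 probes of KLF10 did. Levels of different genes are not compared, since each comes from its own probe. A change was called at an adjusted p under 0.05 in limma, adjusted over all 11820 genes tested.

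**Figure D1:**
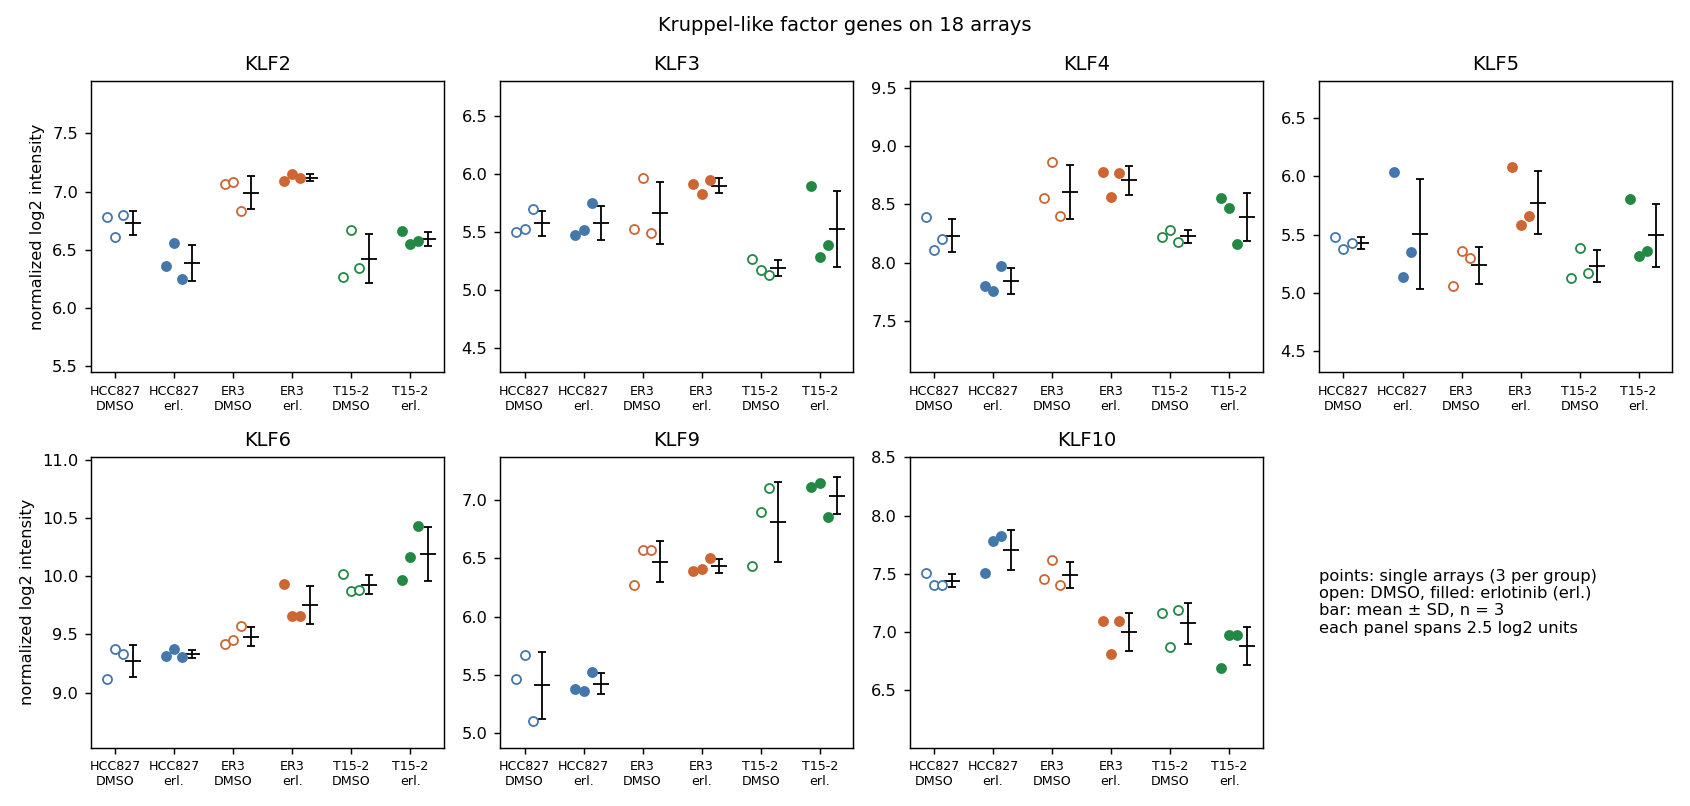
Normalized log2 intensity of the 7 measured Kruppel-like factors on each of the 18 arrays, by line and treatment; points are arrays and bars give the mean ± SD of 3. KLF9 lies lower on every HCC827 array than on any array of the sublines, and the group means of KLF6 are highest in T15-2.

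Erlotinib lowered KLF2 and KLF4 in HCC827, by 0.34 and 0.39 on the log2 scale, and lowered KLF10 on its brightest probe in ER3, by 0.49. In T15-2 no member passed the test. In HCC827, 2 of 7 members were called, both lower, against 37.7% of all genes called (19.2% higher and 18.5% lower). In ER3, 1 of 7 was called, lower, against 3.76% of all genes (2.01% higher and 1.74% lower). In T15-2, 0 of 7 were called by limma against 8.43% of all genes (4.43% higher and 4.00% lower), and 2 of 7 had an unadjusted p under 0.05. The median change of the 7 members was 0.01 in HCC827, 0.13 in ER3 and 0.23 in T15-2, and the median of all genes was 0.01 in each. In RNA from whole cultures, fewer cells making a transcript and less transcript per cell cannot be told apart.

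KLF2, a factor of quiescence in endothelium and T cells, read 6.78, 6.61 and 6.80 in HCC827 in DMSO and 6.36, 6.56 and 6.25 in erlotinib. Every erlotinib array was below every DMSO array, a fall of 0.34 ± 0.11 (SE), 1.27-fold, with an adjusted p of 0.0186. In ER3 it read 7.06, 7.08 and 6.83 in DMSO and 7.09, 7.15 and 7.12 in erlotinib, a difference of 0.13 ± 0.11 (adjusted p = 0.55) with the erlotinib arrays just above. In T15-2 it read 6.26, 6.67 and 6.34 in DMSO and 6.66, 6.55 and 6.57 in erlotinib, a difference of 0.17 ± 0.11 (adjusted p = 0.38), and the groups overlapped. The test of the difference itself gave a response 0.47 ± 0.16 higher in ER3 than in HCC827 (adjusted p = 0.0357) and 0.51 ± 0.16 higher in T15-2 (adjusted p = 0.0346). Both response differences share the HCC827 arrays. Without HCC827 DMSO replicate 1 or 3, or HCC827 erlotinib replicate 1 or 3, the fall in HCC827 was between 0.27 and 0.33 and missed the threshold, with adjusted p from 0.053 to 0.0956. The response differences were lost without the same 4 arrays and without 4 of the 6 arrays of the subline (ER3 DMSO replicate 3 and all 3 ER3 erlotinib arrays; T15-2 DMSO replicates 1 and 3 and T15-2 erlotinib replicates 1 and 2), with adjusted p up to 0.0965 for ER3 and 0.101 for T15-2.

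KLF4, known for growth arrest in epithelia and for its use in cell reprogramming, read 8.39, 8.11 and 8.20 in HCC827 in DMSO and 7.80, 7.76 and 7.97 in erlotinib. The groups did not overlap, and the fall of 0.39 ± 0.12 (SE), 1.31-fold, had an adjusted p of 0.0162. ER3 read 8.56, 8.86 and 8.40 in DMSO and 8.78, 8.57 and 8.77 in erlotinib, which overlapped, with a difference of 0.10 ± 0.12 (adjusted p = 0.69). T15-2 read 8.22, 8.28 and 8.17 in DMSO and 8.55, 8.47 and 8.16 in erlotinib, which also overlapped, with a difference of 0.17 ± 0.12 (adjusted p = 0.46). The response was 0.49 ± 0.17 higher in ER3 than in HCC827 (adjusted p = 0.049) and 0.56 ± 0.17 higher in T15-2 (adjusted p = 0.0381). KLF2 and KLF4 thus passed the same 3 tests in the same directions, although the tests share arrays. The fall of KLF4 in HCC827 missed the threshold without HCC827 DMSO replicate 1 (0.31, adjusted p = 0.0868), HCC827 erlotinib replicate 1 (0.37, adjusted p = 0.051) or HCC827 erlotinib replicate 2 (0.35, adjusted p = 0.064). The response difference of ER3 was lost without any of 12 arrays, which were replicates 1 and 3 of HCC827 DMSO, ER3 DMSO and ER3 erlotinib, replicates 1 and 2 of HCC827 erlotinib, the 3 arrays of T15-2 DMSO and replicate 2 of T15-2 erlotinib (0.39 to 0.51, adjusted p up to 0.132). It was also lost with no filter on dim probes (adjusted p = 0.065), with each probe tested alone and when only the compared groups were fitted (adjusted p = 0.06 in each). With the replicate number as a block it was lost as well (adjusted p = 0.0585). That of T15-2 was lost without replicate 1 or 3 of HCC827 DMSO or of T15-2 DMSO, or replicate 1 or 2 of HCC827 erlotinib or of T15-2 erlotinib (0.48 to 0.58, adjusted p up to 0.109). With median scaling over all probes, where the median of all genes was 0.25 for ER3 and 0.24 for T15-2, the response differences were 0.78 and 0.78 for KLF2 and 0.86 and 0.92 for KLF4.

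**Figure D2:**
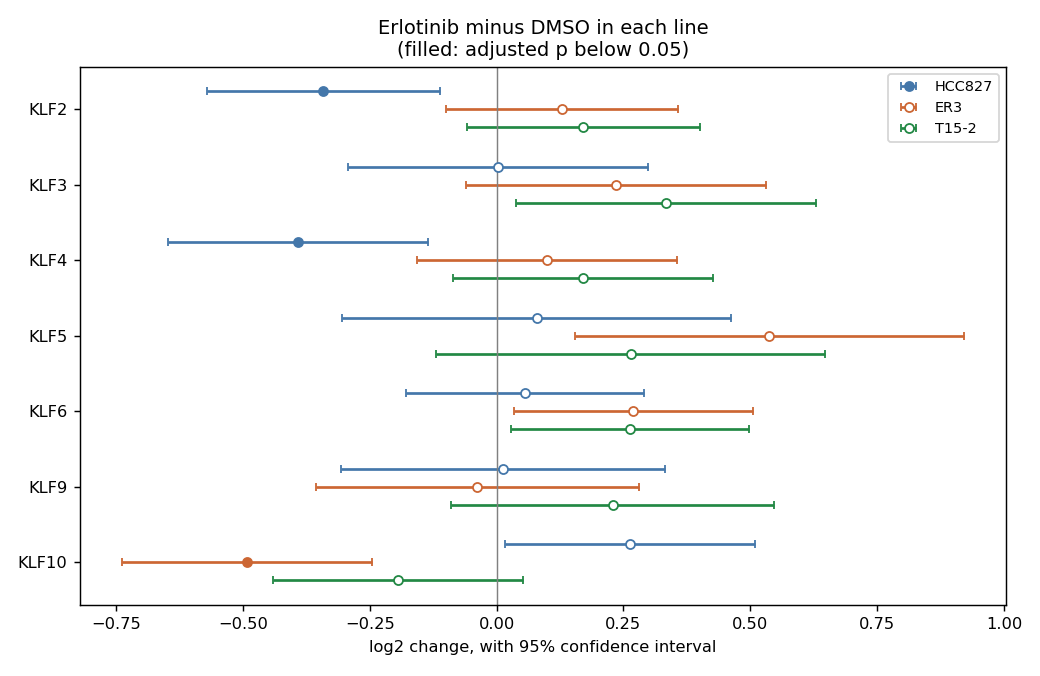
Log2 change on erlotinib against DMSO for the 7 members in HCC827, ER3 and T15-2; points are limma estimates and bars their 95% intervals, with 3 arrays per group and filled points for an adjusted p under 0.05. KLF2 and KLF4 lie below 0 in HCC827 only, at -0.34 and -0.39, and KLF10 lies below 0 in ER3 at -0.49.

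KLF10, which TGF-beta induces early and which represses through SIN3A, differed in its response between the lines. Its brightest probe read 7.51, 7.41 and 7.41 in HCC827 in DMSO and 7.50, 7.78 and 7.82 in erlotinib, a difference of 0.26 ± 0.12 that missed the threshold (adjusted p = 0.086) and passed without HCC827 erlotinib replicate 1 (0.36, adjusted p = 0.031). In ER3 it read 7.45, 7.62 and 7.40 in DMSO and 7.09, 6.81 and 7.09 in erlotinib, with no overlap and a fall of 0.49 ± 0.12, 1.41-fold (adjusted p = 0.0266). In T15-2 it read 7.16, 6.87 and 7.19 in DMSO and 6.69, 6.97 and 6.98 in erlotinib, a difference of -0.19 ± 0.12 with overlapping groups (adjusted p = 0.35). The response of ER3 was 0.76 below that of HCC827 (difference -0.76 ± 0.17, adjusted p = 0.00318), the largest of the response differences among the 7 members. That of T15-2 was lower by 0.46 ± 0.17 and missed the threshold (difference -0.46, adjusted p = 0.078). The fall in ER3 was lost without ER3 DMSO replicate 1 or 2 or ER3 erlotinib replicate 1 or 2, with adjusted p up to 0.0845, and without both end arrays of the first component (-0.43, adjusted p = 0.0529). It was also lost when the 3 probes were averaged (-0.17, adjusted p = 0.36), with arrays scaled to the median of all probes (-0.30, adjusted p = 0.3), and when only the ER3 groups were fitted (adjusted p = 0.14). Fitting only the ER3 groups left the estimate at -0.49, and 14 of all 11820 genes were called there, against 444 with all groups fitted. The response difference of ER3 kept its call without any 1 array but lost it on averaging the probes (-0.37, adjusted p = 0.072) and on that scaling (-0.39, adjusted p = 0.22). That of T15-2 passed without HCC827 erlotinib replicate 1 (-0.56, adjusted p = 0.038), without T15-2 DMSO replicate 2 (-0.56, adjusted p = 0.037), without both end arrays of the first component (-0.51, adjusted p = 0.0477) and on averaging the probes (-0.44, adjusted p = 0.048).

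The other probes of KLF10, each tested among all 19931 kept probes, showed which part of this pattern rests on the choice of probe. The second probe read 7.07, 7.04 and 6.98 in HCC827 in DMSO and 7.22, 7.43 and 7.31 in erlotinib, and this rise of 0.29 ± 0.11 passed (adjusted p = 0.0449). In ER3 it read 7.13, 6.86 and 6.99 in DMSO and 6.88, 6.66 and 6.76 in erlotinib, overlapping groups with a difference of -0.22 ± 0.11 (adjusted p = 0.29). In T15-2 it read 7.28, 7.03 and 7.19 in DMSO and 6.62, 6.78 and 6.99 in erlotinib, with no overlap and a difference of -0.37 ± 0.11 that just missed the threshold (adjusted p = 0.05002). The response differences on this probe were -0.52 ± 0.15 for ER3 (adjusted p = 0.025) and -0.66 ± 0.15 for T15-2 (adjusted p = 0.00931), both called. So the sign of the response in each line was the same on both bright probes, while the probes differed in which line's change was called. The third probe, above background on 17 arrays, lay between 4.65 and 5.83, and none of its 9 comparisons was called. It differed by 0.03 in HCC827, 0.20 in ER3 and -0.17 in T15-2, each with an SE of 0.19. Which transcripts each probe matches was not analysed here.

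**Figure D3:**
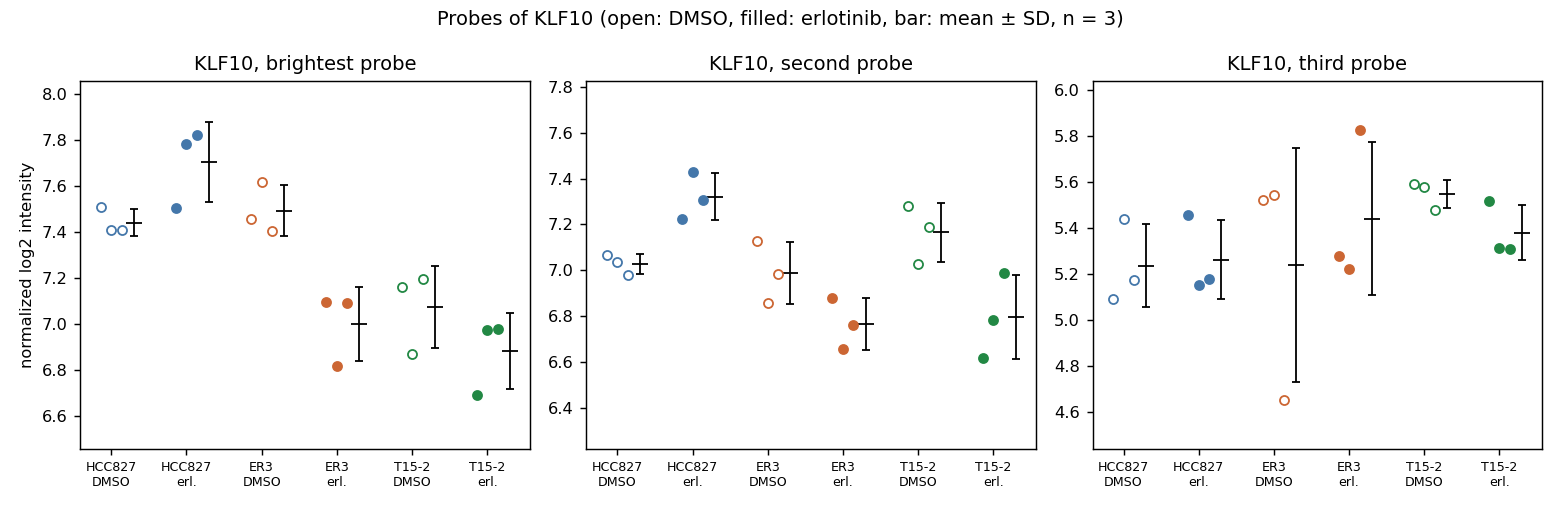
Normalized log2 intensity of the 3 KLF10 probes on 18 arrays, with open points for DMSO, filled points for erlotinib and bars for the mean ± SD of 3 arrays. On the brightest and the second probe the mean in erlotinib lies higher in HCC827 and lower in the sublines. Arrays of the 2 treatments overlap in HCC827 and T15-2 on the brightest probe and in ER3 on the second. In DMSO the mean of T15-2 lies at 7.07 on the brightest probe, below HCC827 at 7.44, but at 7.17 on the second, above HCC827 at 7.03.

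KLF5, KLF6, KLF3 and KLF9 did not pass the test for erlotinib in any line. KLF5, a factor of proliferating epithelial cells, read 5.06, 5.36 and 5.30 in ER3 in DMSO and 6.08, 5.59 and 5.66 in erlotinib. The groups did not overlap, and the difference of 0.54 ± 0.18 missed the threshold (adjusted p = 0.11). Without HCC827 erlotinib replicate 1 the same difference passed (adjusted p = 0.048), as did its response difference against HCC827 (0.72, adjusted p = 0.022; 0.46 ± 0.26 with all arrays). KLF5 was highest on replicate 1 of each erlotinib group, at 6.04 in HCC827, 6.08 in ER3 and 5.81 in T15-2, against 5.14 to 5.66 on the other 6 erlotinib arrays. Raw KLF5 signals were low, at 71.8, 81.4 and 74.7 in ER3 in DMSO against array medians of 60.4, 60.3 and 60.9. KLF6 differed by 0.06 ± 0.11 in HCC827, 0.27 ± 0.11 in ER3 and 0.26 ± 0.11 in T15-2, with adjusted p of 0.74, 0.19 and 0.16. KLF3 differed by 0.24 ± 0.14 in ER3 and 0.33 ± 0.14 in T15-2, and by 0.00 ± 0.14 in HCC827. KLF9 differed by 0.01, -0.04 and 0.23 in HCC827, ER3 and T15-2, each ± 0.15, and the 95% intervals allow a change of at most 0.55 in size.

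Over the tests of response differences, 3 of 7 members were called for ER3 against HCC827, 2 with a higher response and 1 with a lower, against 22.0% of all genes (11.6% higher and 10.4% lower). For T15-2 against HCC827, 2 of 7 were called, both higher, against 13.1% of all genes (7.17% higher and 5.90% lower). Between the sublines 0 of 7 were called by limma, against 0.0338% of all genes, all lower, and 0 of 7 had an unadjusted p under 0.05. The difference of response between T15-2 and ER3 was 0.04 ± 0.16 for KLF2 (95% interval -0.28 to 0.37) and 0.07 ± 0.17 for KLF4 (-0.29 to 0.43). For KLF10 it was 0.30 ± 0.17 (-0.05 to 0.65).

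Between the lines in DMSO, KLF9 was the member that differed most. It was 1.06 higher in ER3 than in HCC827 and 1.40 higher in T15-2, while KLF6 was higher in T15-2 than in both other lines. KLF2 and KLF3 were lower in T15-2 than in HCC827 and ER3, as was KLF10 on its brightest probe but not on its others, and KLF4 was higher in ER3 than in both other lines. In ER3 against HCC827, 2 of 7 members were called, both higher, against 35.1% of all genes (16.0% called higher). In T15-2 against HCC827, 5 of 7 were called, 2 higher and 3 lower, against 32.2% of all genes (15.9% higher and 16.3% lower). In T15-2 against ER3, 5 of 7 were called, 1 higher and 4 lower, against 33.4% of all genes (17.8% higher and 15.5% lower). Any pair of these comparisons shares the DMSO arrays of 1 line. The median of the 7 differences was 0.21, -0.20 and -0.38 in this order, with medians over all genes of -0.02, 0.01 and 0.02.

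KLF9, a repressor of GC-rich promoters that glucocorticoids induce, read 5.46, 5.67 and 5.10 in HCC827 in DMSO. It read 6.27, 6.58 and 6.58 in ER3 in DMSO and 6.44, 6.90 and 7.10 in T15-2 in DMSO. Every subline array was above every HCC827 array. The difference of 1.06 ± 0.15 (SE) in ER3, 2.09-fold, had an adjusted p of 2.04e-05, and that of 1.40 ± 0.15 in T15-2, 2.64-fold, had one of 6.42e-07. Erlotinib arrays stood apart in the same way, at 5.38, 5.36 and 5.53 in HCC827, at 6.40, 6.41 and 6.50 in ER3 and at 7.12, 7.15 and 6.86 in T15-2. Between the sublines in DMSO the difference of 0.34 ± 0.15 missed the threshold (adjusted p = 0.096), but passed without T15-2 DMSO replicate 1, the lowest of its group (0.53, adjusted p = 0.011). Both differences from HCC827 kept their call in all 30 alternative settings, at 0.66 to 1.19 in ER3 and 0.91 to 1.59 in T15-2, with the lowest of each range found without background correction. Raw KLF9 signals in HCC827 in DMSO were low, at 80.8, 89.1 and 74.9 against array medians of 55.6, 55.1 and 57.8. The size of these differences therefore depends on the background correction. The KLF9 window shown above is the only one of the 4 without a GC box, which 42.6% of all 35116 windows hold. Whether this relates to the level of KLF9 was not tested.

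KLF6, a zinc-finger activator with a reported growth-suppressing role in several carcinomas, read 9.12, 9.38 and 9.33 in HCC827 in DMSO, 9.42, 9.45 and 9.57 in ER3 and 10.02, 9.88 and 9.89 in T15-2. T15-2 arrays were the highest, with no overlap with either other line. T15-2 was 0.65 ± 0.11 above HCC827, 1.57-fold (adjusted p = 0.000163), and 0.45 ± 0.11 above ER3, 1.36-fold (adjusted p = 0.00462). ER3 was 0.21 ± 0.11 above HCC827, which did not pass (adjusted p = 0.17). Both T15-2 differences kept their call in all 30 alternative settings.

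KLF2 in T15-2 was 0.31 ± 0.11 below HCC827 (difference -0.31, adjusted p = 0.0389) and 0.57 ± 0.11 below ER3 (difference -0.57, 1.48-fold, adjusted p = 0.00053), from the DMSO values given above. T15-2 and HCC827 overlapped on 1 array of T15-2, replicate 2, and T15-2 and ER3 did not overlap. The difference from ER3 kept its call in all 30 settings. That from HCC827 was lost without replicate 1 or 3 of HCC827 DMSO or of T15-2 DMSO (-0.23 to -0.28, adjusted p up to 0.18), and when only these groups were fitted (adjusted p = 0.064). ER3 was 0.26 ± 0.11 above HCC827, which missed the threshold (adjusted p = 0.071) and passed without ER3 DMSO replicate 3 (0.34, adjusted p = 0.035) or without T15-2 DMSO replicate 2 (adjusted p = 0.045).

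KLF4 in ER3 was 0.38 ± 0.12 above HCC827 (adjusted p = 0.0226), and in T15-2 it was 0.38 ± 0.12 below ER3 (difference -0.38, adjusted p = 0.0217). HCC827 and T15-2 differed by 0.01 ± 0.12 in DMSO (95% interval of T15-2 minus HCC827, -0.26 to 0.25). Both calls rest on ER3 DMSO replicate 2, which read 8.86 and lay at the end of the first component: without it the differences were 0.25 and -0.25 (adjusted p = 0.13 in each), as they were without both end arrays (adjusted p = 0.079 in each). The first was also lost without HCC827 DMSO replicate 2 or 3 (adjusted p = 0.095 and 0.065), and the second without T15-2 DMSO replicate 1 or 3 (adjusted p = 0.054 and 0.068). With arrays scaled to the median of all probes, which moved the median of all genes to -0.22 in ER3 against HCC827, the first was 0.08 (adjusted p = 0.76) and the second -0.30 (adjusted p = 0.23).

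KLF3, a repressor that binds CtBP, read 5.50, 5.52 and 5.70 in HCC827 in DMSO, 5.52, 5.97 and 5.49 in ER3 and 5.27, 5.18 and 5.13 in T15-2. T15-2 arrays were the lowest and overlapped neither other line. T15-2 was 0.39 ± 0.14 below HCC827 (difference -0.39, adjusted p = 0.043) and 0.47 ± 0.14 below ER3 (difference -0.47, adjusted p = 0.0148). The difference from HCC827 lost its call in 14 of 30 settings, among them each removal of an array of the compared groups (adjusted p up to 0.148) and of ER3 erlotinib replicate 3. It was -0.21 without background correction and on the authors' processed values (adjusted p = 0.077 in each), and the call was also lost with median scaling over the kept probes, no filter on dim probes, each probe tested alone, robust eBayes and the replicate number as a block (adjusted p from 0.052 to 0.077). That from ER3 was lost without ER3 DMSO replicate 2 (-0.32, adjusted p = 0.094) or T15-2 DMSO replicate 3 (-0.44), without both end arrays (-0.32, adjusted p = 0.088), and with median scaling over all probes (-0.40, adjusted p = 0.081).

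KLF10 on its brightest probe was 0.37 ± 0.12 lower in T15-2 than in HCC827 (difference -0.37, adjusted p = 0.0219) and 0.42 ± 0.12 lower than in ER3 (difference -0.42, adjusted p = 0.00975). Its second probe gave differences of 0.14 ± 0.11 and 0.18 ± 0.11 (adjusted p = 0.387 and 0.244), in the opposite direction and not called. The third probe gave 0.31 ± 0.19 in both (adjusted p = 0.249 and 0.243), again not called. Averaging the probes turned both differences to 0.03 and 0.02 (adjusted p = 0.863 and 0.888), so the line difference of KLF10 has no settled direction over its probes. On the brightest probe the first call was lost without HCC827 DMSO replicate 1 or T15-2 DMSO replicate 2 (adjusted p = 0.077 and 0.126), and the second without T15-2 DMSO replicate 2 (-0.32, adjusted p = 0.0661) or with median scaling over all probes (-0.31, adjusted p = 0.17). KLF5 differed by -0.19 ± 0.18 in ER3, -0.20 ± 0.18 in T15-2 and -0.01 ± 0.18 between the sublines, with none called. HCC827 in DMSO read 5.48, 5.38 and 5.43 for KLF5, and T15-2 in DMSO read 5.13, 5.38 and 5.17.

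**Figure D4:**
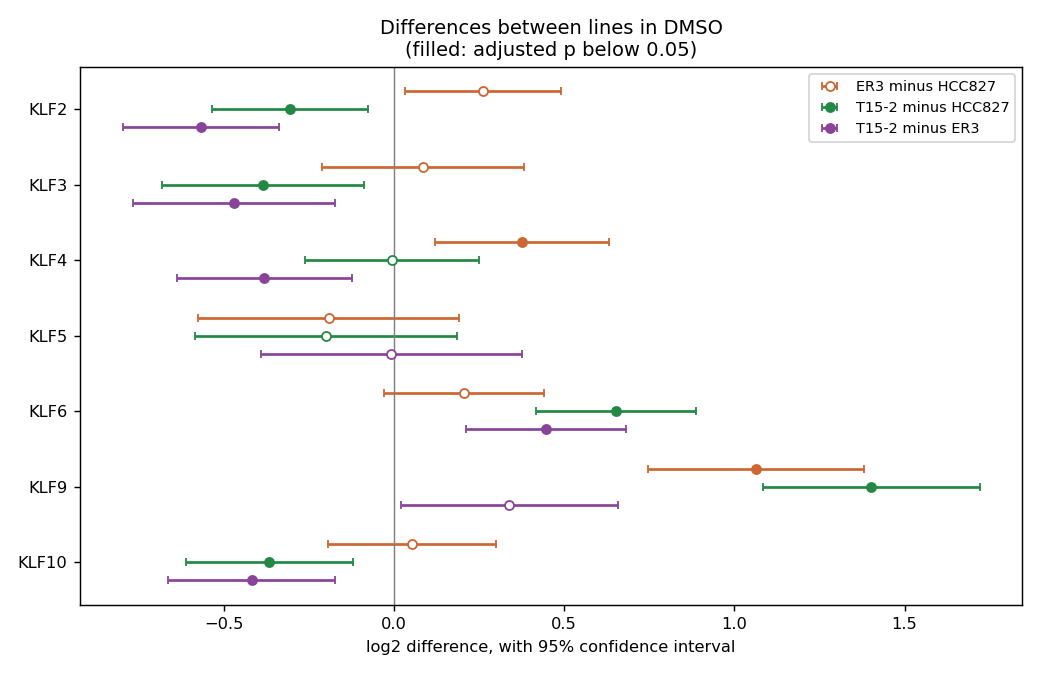
Log2 difference between lines in DMSO for the 7 members; points are limma estimates and bars their 95% intervals, with 3 arrays per group and filled points for an adjusted p under 0.05. KLF9 stands at 1.06 in ER3 and 1.40 in T15-2 against HCC827, and KLF6 at 0.65 in T15-2.

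Markers of lung epithelium differed between the lines in DMSO as well. In T15-2 against HCC827, 7 of 9 were lower and 0 higher, against 16.3% of all genes called lower and 15.9% higher. CDH1 stood at -1.92 ± 0.08, EPCAM at -1.71 ± 0.20, NAPSA at -1.68 ± 0.09 and SFTPB at -2.67 ± 0.13. SFTPB was above background on 2 of 3 arrays of T15-2 in DMSO. In ER3 against HCC827, 4 of 9 were lower and 1, KRT7, was higher. The log2 of their summed intensity ran from 14.48 to 14.56 in HCC827 in DMSO, from 14.43 to 14.56 in ER3 and from 13.68 to 13.80 in T15-2. In erlotinib it ran from 14.31 to 14.44, from 14.43 to 14.69 and from 13.79 to 13.84. CD68, 1 of the 2 leukocyte markers that were measured, was 0.39 ± 0.08 higher in ER3 and 0.48 ± 0.08 higher in T15-2 than in HCC827, and CD14 was not called in these comparisons. The log2 summed intensity of both ran from 11.25 to 11.45 in HCC827 in DMSO, from 11.66 to 11.82 in ER3 and from 11.74 to 11.90 in T15-2. PECAM1 was 0.51 ± 0.18 higher in ER3. VWF was lower in both sublines (-0.41 in ER3 and -0.62 in T15-2), as was COL1A1 (-0.39 and -0.47), and COL1A1 was above background on 0 of 3 arrays of each subline in DMSO. VWF was above background on 1 of 3 arrays of ER3 and 0 of 3 arrays of T15-2 in DMSO. On erlotinib in HCC827 2 epithelial markers rose and 4 fell, against 19.2% of all genes called higher and 18.5% lower. CD14 changed by -0.52 ± 0.18 there. The part of these markers in the Kruppel-like factor results was not tested.

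Ordered by the mean of 3 arrays, KLF9 ran from 7.04 ± 0.16 (SD) in T15-2 in erlotinib over 6.81 ± 0.34 in T15-2 in DMSO, 6.47 ± 0.18 in ER3 in DMSO and 6.44 ± 0.06 in ER3 in erlotinib to 5.42 ± 0.09 and 5.41 ± 0.29 in HCC827 in erlotinib and DMSO. Only the step between ER3 in erlotinib and HCC827 in erlotinib, of 1.01, had no overlap of arrays between neighbours. KLF6 ran from 10.19 ± 0.23 in T15-2 in erlotinib over T15-2 in DMSO, ER3 in erlotinib at 9.75 ± 0.16, ER3 in DMSO at 9.48 ± 0.08 and HCC827 in erlotinib to 9.28 ± 0.14 in HCC827 in DMSO. Its neighbours did not overlap between ER3 in erlotinib and ER3 in DMSO, nor between ER3 in DMSO and HCC827 in erlotinib. KLF2 was highest in ER3, at 7.12 ± 0.03 in erlotinib and 6.99 ± 0.14 in DMSO, then 6.73 ± 0.11 in HCC827 in DMSO, and the lower 3 groups overlapped in sequence down to 6.39 ± 0.16 in HCC827 in erlotinib. KLF4 ran from 8.71 ± 0.12 in ER3 in erlotinib to 7.84 ± 0.11 in HCC827 in erlotinib, and only the last step, from T15-2 in DMSO at 8.23 ± 0.05, had no overlap. The 6 group means spanned 1.63 for KLF9, 0.91 for KLF6, 0.87 for KLF4, 0.82 for KLF10, 0.73 for KLF2, 0.71 for KLF3 and 0.55 for KLF5.

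Other members of the family gave little signal. Of 9 further Kruppel-like factors, 2 were measured, KLF8 and KLF15, and 0 were called by limma in any of the 9 comparisons, while the probes of KLF1, KLF7, KLF12, KLF14, KLF16 and KLF17 were above background on at most 1 array. The related SP factors, which bind the same GC boxes, had 7 of 9 members measured. In HCC827 erlotinib raised SP1 by 0.87 ± 0.16 (adjusted p = 0.00021) and lowered SP8 by 0.45 ± 0.16 (difference -0.45), against 19.2% of all genes called higher and 18.5% lower, and SP8 was above background on 2 of 3 erlotinib arrays there. In ER3 erlotinib raised SP3 by 0.57 ± 0.15 (adjusted p = 0.0441), the only 1 of 7 called there, against 3.76% of all genes. In T15-2 0 of 7 SP factors were called, against 8.43% of all genes. The mean of SP3 in T15-2 was 8.89 in DMSO and 9.35 in erlotinib, a rise that was not called. The median change of the list in HCC827 was -0.02, against 0.01 over all genes.

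Co-regulators and ubiquitin ligases that act on Kruppel-like factors were measured for 12 of 13 and 10 of 10 genes. Among the 12 co-regulators 4 rose and 0 fell in HCC827 on erlotinib, against 19.2% of all genes called higher and 18.5% lower, including SIN3A, the scaffold of a histone deacetylase complex, by 0.53 ± 0.09 and CREBBP, an acetyltransferase, by 0.41 ± 0.09. CREBBP also rose in T15-2, by 0.47 ± 0.09, the only 1 of the 12 called there, and 0 were called in ER3, against 8.43% and 3.76% of all genes. In DMSO 3 were higher and 1 lower in ER3 than in HCC827, with FHL3, a LIM protein that binds KLF3, higher by 0.64 ± 0.10, and 2 were higher in T15-2, against 35.1% and 32.2% of all genes called. Among the 10 ligases 3 rose and 1 fell in HCC827 on erlotinib, 2 rose in ER3 and 1 rose in T15-2, against 37.7%, 3.76% and 8.43% of all genes called. FBXO32, an F-box protein, rose in HCC827 by 0.53 ± 0.09 and was 1.17 ± 0.09 higher in ER3 and 0.74 ± 0.09 higher in T15-2 than in HCC827 in DMSO. SMURF1 was 0.80 ± 0.14 higher in T15-2 than in HCC827, where 3 ligases were higher and 3 lower, against 32.2% of all genes called. The median of the co-regulators was 0.09 in HCC827 on erlotinib and that of the ligases was -0.10, against 0.01 over all genes.

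The MEK5-ERK5-MEF2 pathway, which induces KLF2 and KLF4 in endothelium, had 6 of 8 genes measured. Of these 2 rose and 1 fell in HCC827 on erlotinib, 0 were called in ER3 and 1 rose in T15-2, against 37.7%, 3.76% and 8.43% of all genes called. On erlotinib in HCC827, where KLF2 and KLF4 fell, MEF2D rose by 0.65 ± 0.08 and MAP2K5, the kinase MEK5, by 0.67 ± 0.12, while MEF2C differed by -0.53 ± 0.11 and fell. In T15-2 MEF2D rose by 0.27 ± 0.08. In DMSO MEF2D was 0.91 ± 0.08 higher in ER3 and 0.56 ± 0.08 higher in T15-2 than in HCC827. The median of the list was 0.23 in HCC827 on erlotinib, 0.16 in ER3 and 0.09 in T15-2, against 0.01 over all genes in each.

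Genes reported as targets of Kruppel-like factors were measured for 19 of 27. On erlotinib 5 rose and 6 fell in HCC827, 2 rose and 2 fell in ER3, and 3 rose and 2 fell in T15-2, against 37.7%, 3.76% and 8.43% of all genes called. FGFBP1, a secreted carrier of fibroblast growth factors reported as a KLF5 target, changed by -4.59 ± 0.10 in HCC827, -1.65 ± 0.10 in ER3 and -1.13 ± 0.10 in T15-2, and was above background on 2 of 3 erlotinib arrays in HCC827 and 1 of 3 in T15-2. CCND1, cyclin D1, changed by -3.18 ± 0.08, -0.31 ± 0.08 and -0.48 ± 0.08 in this order of lines. KRT4, a keratin reported as a target of KLF4 and KLF5, rose by 0.91 ± 0.11 in HCC827 and 0.58 ± 0.11 in ER3, and was lower by 3.51 in both sublines than in HCC827 in DMSO (difference -3.51 ± 0.11 in each). In DMSO 3 targets were higher and 7 lower in ER3 than in HCC827, and 2 higher and 6 lower in T15-2, against 35.1% and 32.2% of all genes called. The median change of the list on erlotinib was -0.00349 in HCC827, 0.12 in ER3 and 0.04 in T15-2.

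Of 8 glucocorticoid-induced genes listed as companions of KLF9, 7 were measured. In DMSO 2 were higher and 1 lower in ER3 than in HCC827, and 3 were higher and 1 lower in T15-2, against 35.1% and 32.2% of all genes called. DUSP1, a phosphatase of MAP kinases, was 0.76 ± 0.09 higher in ER3 and 0.94 ± 0.09 higher in T15-2, and ERRFI1, an inhibitor of EGFR, was 1.02 ± 0.10 and 0.50 ± 0.10 higher. SGK1 differed by -0.66 ± 0.09 in ER3 and TSC22D3 by -0.60 ± 0.11 in T15-2, both lower than in HCC827. On erlotinib 3 rose and 1 fell in HCC827, 0 were called in ER3 and 3 rose in T15-2, against 37.7%, 3.76% and 8.43% of all genes called, with TSC22D3 up by 0.78 ± 0.11 and 0.37 ± 0.11, in HCC827 and T15-2, whereas KLF9 did not pass in either. The median of the list in DMSO was 0.16 in ER3 and 0.12 in T15-2 against HCC827, with -0.02 and 0.01 over all genes.

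Of 12 early genes of TGF-beta signalling, companions of KLF10 and KLF11, 9 were measured. On erlotinib 2 rose and 1 fell in HCC827, with ID1, an inhibitor of differentiation factors, up by 1.34 ± 0.14 and the receptor TGFBR2 up by 0.33 ± 0.10, and 0 were called in ER3 or T15-2, against 37.7%, 3.76% and 8.43% of all genes called. In DMSO 3 were higher and 2 lower in ER3 than in HCC827, and 2 higher and 1 lower in T15-2, against 35.1% and 32.2%. SMAD3, which carries the TGF-beta signal to the nucleus, was 0.48 ± 0.09 higher in ER3 and 0.89 ± 0.09 higher in T15-2. The median change on erlotinib was 0.08 in HCC827, 0.18 in ER3 and 0.07 in T15-2.

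Of 14 immediate early genes, the class to which growth stimuli also add KLF2, KLF4, KLF6 and KLF10, 13 were measured. On erlotinib 0 rose and 6 fell in HCC827, and 1 rose and 2 fell in each of ER3 and T15-2, against 18.5%, 1.74% and 4.00% of all genes called lower. EGR1 changed by -3.60 ± 0.14 in HCC827, -0.57 ± 0.14 in ER3 and -1.58 ± 0.14 in T15-2, and was above background on 1 of 3 erlotinib arrays in HCC827. FOSL1 changed by -2.91 ± 0.13, -0.61 ± 0.13 and -0.70 ± 0.13, and IER3 by -1.73 ± 0.11 in HCC827. The falls of KLF2 and KLF4 in HCC827 were several times smaller on the log2 scale than those of these 3 genes, which were named for their large changes. MYC, named by the same rule, went from 11.04 to 10.55 on erlotinib in HCC827. Of the 13 genes 7 were not called there, and the falls of KLF2 and KLF4 were larger than the median change of the list. In DMSO 7 were higher and 2 lower in ER3 than in HCC827, and 5 higher and 2 lower in T15-2, against 35.1% and 32.2% of all genes called, with MYC up by 0.62 ± 0.10 and 0.93 ± 0.10. The median change on erlotinib was -0.15 in HCC827, -0.02 in ER3 and -0.05 in T15-2.

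KLF9 was the only member whose group means spanned at least 1 on the log2 scale, and the genes nearest to it in pattern were found as those with the smallest root mean square difference between centred group means over the 6 groups. These were GEM, a small GTP-binding protein, at 0.126, CDK6, a cell cycle kinase, at 0.135, and TRAF1, an adaptor of tumour necrosis factor receptors, at 0.15. GEM stood at 6.52 in HCC827 in DMSO, 7.26 in ER3 and 7.75 in T15-2. CDK6 stood at 8.86, 9.73 and 10.19 in this order, and TRAF1 at 5.16, 6.25 and 6.38. They were picked for this likeness, so their levels are a description and were not tested.

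**Figure D5:**
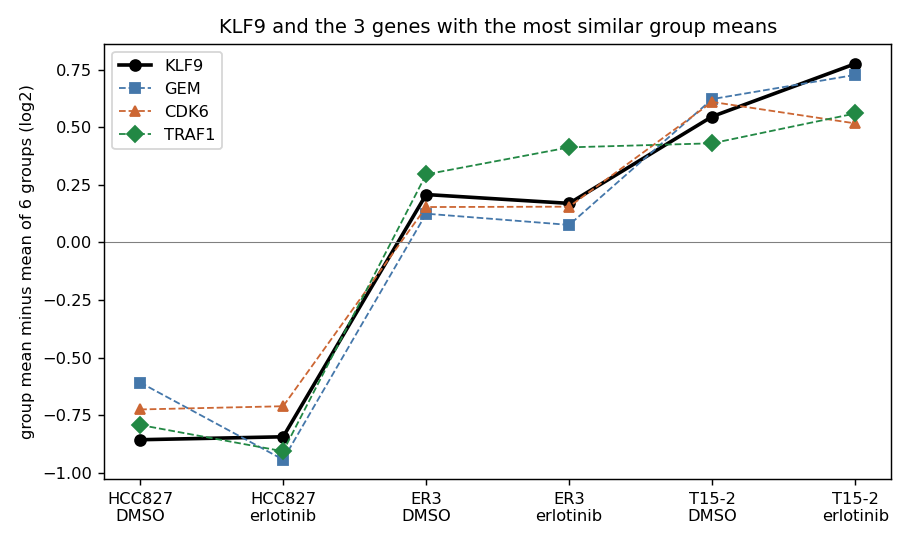
Group means of KLF9, GEM, CDK6 and TRAF1, each minus its own mean over the 6 groups, on the log2 scale; every point is the mean of 3 arrays. All 4 lie lowest in both HCC827 groups and highest in the T15-2 groups, with root mean square differences from KLF9 of 0.126, 0.135 and 0.15.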

How the data were processed

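Biotin-labelled cRNA from 18 samples was measured on Illumina BeadChips. Per the file headers, the deposited signal table holds an intensity and a detection p-value for each probe, without normalization. Per the submitters' processing notes BeadStudio was used, with no version named. The other deposited table, of intensity values processed by the authors, is quantile-normalized as its ranks and distributions show, and was used as an alternative.

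Signals were processed in R 4.3.3 by the neqc function of limma 3.58.1 (offset 16, quantile normalization, log2). Probes with a detection p under 0.05 on at least 3 of 18 arrays were kept (19931), 15759 of them with 1 symbol. Of all 48803 probes 28093 had 1 symbol, 13 several and 20697 none. The brightest probe stood for each of 11820 genes. A limma model of 6 group means over all 18 arrays gave 9 contrasts, adjusted by Benjamini-Hochberg in each; it was tested on simulated data. No 2 arrays were identical.

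Groups and replicate numbers come from the labels. Over 45 pairs of same-numbered arrays, deviations from group means correlated between -0.402 and 0.272, with 7 over 0.1. Among erlotinib arrays, replicate 1 gave 0.115 for HCC827 with ER3, 0.234 for HCC827 with T15-2 and 0.103 for ER3 with T15-2. In the same order replicate 2 gave 0.224, -0.172 and -0.165, and replicate 3 gave 0.0401, -0.0688 and -0.124. Differently numbered arrays were not compared in this way, so whether arrays of the same number share a batch was not tested. The members and gene lists were chosen with earlier results of these data known. All members could be named, as could all cell type markers, the 4 genes of each list with the largest change over the contrasts, and the 3 genes nearest in pattern to a member spanning at least 1 on the log2 scale.

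Alternatives were raw signals with a floor of 16, the authors' values, median scaling over all probes, no filter, a filter at a detection p of 0.01, the mean of a gene's probes, each probe alone, only the compared groups, a robust eBayes with trend, the replicate block and each array left out. Added after seeing the data were median scaling over the kept probes and the removal of 2 arrays together (T15-2 erlotinib replicate 3 and ER3 DMSO replicate 2).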

Additional observations from a re-analysis of the deposited data

Results flagged for a closer look

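The erlotinib response of 3 members differed between lines by a test of the difference itself, in limma over all genes. KLF2 responded 0.47 higher in ER3 and 0.512 higher in T15-2 than in HCC827, on the log2 scale. KLF4 responded 0.49 higher in ER3 and 0.561 higher in T15-2. KLF10 on its brightest probe responded lower in ER3, by -0.755, and its second probe gave -0.515 in ER3 and -0.662 in T15-2. All of these share the 6 HCC827 arrays. With 1 array left out, KLF4 lost its call in 12 of 18 fits for ER3 and 8 of 18 for T15-2. KLF2 lost it in 8 of 18 for each subline. KLF10 on its brightest probe kept its ER3 call in such fits, but lost it on averaging the probes and with median scaling over all probes. The third KLF10 probe gave 0.174 in ER3 and -0.196 in T15-2, neither called. Groups of 3 arrays are too small for the search for single stray samples, so none was run.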

How the results depend on the processing

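Of the 600 combinations of 20 called member values with 30 alternatives, 503 kept call and direction, 95 kept direction and lost the call, and 2 reversed: with the mean of a gene's probes KLF10 gave 0.0285 in T15-2 against HCC827 and 0.0223 in T15-2 against ER3 (adjusted p = 0.863 and 0.888). Many of these combinations could not change direction. Leaving out an array outside the compared groups, fitting only those groups, testing each probe alone and robust eBayes leave the estimate as it was. So do the replicate block and, for these members, no filter on dim probes. Such settings change only the spread or the adjusted p. KLF9 and KLF6 against HCC827 and ER3, where called, and KLF2 in T15-2 against ER3 kept their call in all 30. Of 1290 combinations of an uncalled value with an alternative, 11 passed the threshold and 55 changed sign without a call, with sizes up to 0.252. The number of members called on erlotinib in ER3, 1, was 0 with median scaling over all probes, with the mean of a gene's probes, with the compared groups alone and without both end arrays. That in ER3 against HCC827 in DMSO, 2, was 1 with median scaling over all probes, with the compared groups alone and without both end arrays. That in T15-2 against ER3 in DMSO, 5, was 2 with median scaling over all probes and 3 without both end arrays. Counts over all 11820 genes moved as well. On erlotinib in ER3 444 were called in the fit reported above and 318 with median scaling over all probes. Averaging probes gave 463 there, and the compared groups alone gave 14. In ER3 against HCC827 the count was 4145, with 4354 on that scaling and 3589 with the compared groups alone. In T15-2 against ER3 it was 3947, and 2695 on that scaling. Leaving out 1 array at a time gave 0 to 2 members called on erlotinib in HCC827, 0 to 2 in ER3 and 0 to 0 in T15-2. It gave 1 to 3 in ER3 against HCC827, 2 to 5 in T15-2 against HCC827 and 3 to 5 in T15-2 against ER3. For the response differences it gave 1 to 3 for ER3, 0 to 3 for T15-2 and 0 to 0 between the sublines. Counts over all genes without single arrays or without both end arrays are not given here. Median scaling over all probes gave medians over all genes of up to 0.252 in size, and scaling over the kept probes of up to 0.0611. With the replicate number as a block, a pairing the labels do not state, 4 members were called in T15-2 against HCC827 (KLF3 lost, adjusted p = 0.058) and 2 in the ER3 response difference (KLF4 lost, adjusted p = 0.0585); the other 7 counts were equal. A fit with the chip as a block was not possible, as the labels tie no array to a chip. Without background correction KLF3 in T15-2 against HCC827 was -0.209 (adjusted p = 0.077), and the KLF9 differences from HCC827 were 0.658 and 0.907.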
